A study of Mus musculus with 8 samples.

Results

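Enzymes that make serine, pass on its one-carbon unit, and build or break down amino acids were followed in mouse aortic endothelial cells at 2 densities. The 8 genes were Psat1, Phgdh, Shmt2, Shmt1, Mthfd2, Mthfd1, Asns and Bcat1. They were chosen by name, and every probe set (a group of short oligonucleotides that reports 1 transcript) whose annotation gave exactly 1 of these symbols was taken. This gave 10 of the 12422 probe sets that were not controls, and they covered 7 of the 8 genes, out of 8251 genes with a probe set of their own. No probe set carried the symbol Mthfd1, so this gene has no value here. Only probe sets that averaged 200 or more in signal on the 8 arrays were tested, and 7 of the 10 probe sets and 6 of the 7 genes did so.

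There were 4 subconfluent cultures, at less than 50% confluency, set against 4 mature confluent monolayers. Each sample was RNA from an equal number of cells on 1 Affymetrix array, and both groups were numbered 1 to 4 as experiments. The labels give no strain, age, passage or treatment, and whether the cultures came from 1 or several isolations is not stated in them. The question was how transcript levels differ between cells with free space and cells in a filled dish. Signals are linear values scaled to a common target of 500 on each array, with scale factors from 3.05 to 13.3, and the number of arrays limits the precision. Same-numbered arrays deviated together. The main fit was unpaired, and a fit that takes the numbers as pairs, called the replicate block, is given beside it. Lot A of the chips held replicate 1 of both groups, lot C held subconfluent replicates 3 and 4 and confluent replicate 3, and the other lots held samples of 1 group only. Of 14 endothelial markers on the array only Eng reached a mean signal of 200, and the summed signal of the 14 was 1252 to 1595 in subconfluent and 1517 to 1977 in confluent samples. Cdh5, Tek and Icam2, the dimmest of the 14, averaged 12.3, 6.88 and 15.2 in subconfluent and 13.6, 15.6 and 15.7 in confluent samples. The brightest below 200 were Sox18, Sox17 and Pecam1, with means of 150, 134 and 111 over the 8 arrays. Kdr averaged 92.0 and reached 204 on subconfluent replicate 2. Of 15 fibroblast and pericyte markers 10 reached that minimum, with a summed signal of 28588 to 42502 in subconfluent and 58261 to 83997 in confluent samples. Markers of macrophages (1 of 8), lymphocytes (1 of 7), smooth muscle (2 of 6) and epithelium or mesothelium (2 of 8) mostly stayed below it. Summed smooth muscle signal was 1408 to 9174 in subconfluent and 1215 to 3022 in confluent samples. The labelled cell type was thus not borne out by the 14 endothelial markers, of which 13 averaged below 200.

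Proliferating cells take serine from the medium or make it from a glycolytic intermediate through Phgdh, Psat1 and Psph. Shmt enzymes split serine into glycine and a one-carbon unit carried by folate, Shmt2 in mitochondria and Shmt1 mainly in the cytosol. Mthfd2 oxidises that unit in mitochondria and Mthfd1 handles it in the cytosol, where it is used to build purines and thymidylate. Asns makes asparagine from aspartate and glutamine. Bcat1 is the cytosolic enzyme that moves the amino group of leucine, isoleucine and valine to and from glutamate. Several of these genes are known targets of the stress-responsive transcription factor ATF4, and MYC is also known to raise serine and one-carbon genes.

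The start-site windows of 4 genes are shown, because Bcat1, Psat1 and Mthfd2 had the largest differences of the tested members and Asns is a much-studied ATF4 target. Each runs from 250 bases before to 50 bases after the RefSeq start site in build GRCm38.p6, on the minus strand, 5′ to 3′. Capitals mark a match, on either strand, to TGATGNAA, the core of the element bound by ATF4 with C/EBP proteins, to CACGTG, the E-box bound by MYC, or to CCAAT, the box bound by NF-Y.
Asns, chr6:7693160-7693459: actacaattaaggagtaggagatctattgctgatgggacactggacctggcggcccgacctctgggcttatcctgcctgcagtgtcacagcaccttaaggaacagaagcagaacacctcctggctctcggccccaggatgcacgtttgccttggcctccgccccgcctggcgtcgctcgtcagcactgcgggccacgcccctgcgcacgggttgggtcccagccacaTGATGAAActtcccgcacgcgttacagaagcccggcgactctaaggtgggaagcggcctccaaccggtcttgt
Psat1, first of 2 start sites, chr19:15925010-15925309: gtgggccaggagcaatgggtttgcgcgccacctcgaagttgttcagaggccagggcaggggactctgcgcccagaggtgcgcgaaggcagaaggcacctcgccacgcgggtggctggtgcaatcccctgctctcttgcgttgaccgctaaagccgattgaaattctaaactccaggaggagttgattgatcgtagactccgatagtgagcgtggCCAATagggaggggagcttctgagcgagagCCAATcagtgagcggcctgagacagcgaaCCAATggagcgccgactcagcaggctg
Mthfd2, chr6:83317555-83317854: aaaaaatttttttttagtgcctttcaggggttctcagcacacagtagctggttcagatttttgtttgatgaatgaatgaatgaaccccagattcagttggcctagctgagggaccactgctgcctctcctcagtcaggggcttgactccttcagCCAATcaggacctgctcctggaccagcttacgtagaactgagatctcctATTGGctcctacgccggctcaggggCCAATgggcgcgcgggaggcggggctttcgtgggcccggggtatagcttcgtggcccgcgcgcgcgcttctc
Bcat1, first of 2 start sites, chr6:145076108-145076407: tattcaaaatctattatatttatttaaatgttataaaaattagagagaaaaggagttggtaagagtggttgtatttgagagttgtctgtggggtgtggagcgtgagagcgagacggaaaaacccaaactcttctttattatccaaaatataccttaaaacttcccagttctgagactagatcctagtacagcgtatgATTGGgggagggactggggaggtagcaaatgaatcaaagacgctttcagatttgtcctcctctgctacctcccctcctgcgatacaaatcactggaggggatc

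The 8 genes had 10 such windows. TGATGNAA was found in 1 of the 10, that of Asns, with its first base 23 bases before the start, and in 3.97% of 32851 windows over all genes. No window of the 8 genes held CACGTG, which 7.15% of all windows held. CCAAT was found in 6 of the 10 windows, 1 each for Bcat1, Psat1, Mthfd2, Phgdh, Shmt1 and Mthfd1, against 37.4% of all windows. The first window of Psat1 and that of Mthfd2 each held 3 copies, and no match overlapped another. A match describes letters only, and no binding was measured.

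With the replicate block Bcat1 and Psat1 rose in subconfluent cells. In the main, unpaired fit Bcat1 was the 1 of the 6 tested genes that did. Its signals were 1811, 2206, 1366 and 1926 in subconfluent replicates 1 to 4, against 439, 1539, 778 and 723.0 in confluent replicates 1 to 4. Confluent replicate 2 lay above subconfluent replicate 3, so the groups overlapped at that point, and the other 3 subconfluent arrays lay above every confluent one. The means were 1827 ± 349 in subconfluent and 869.7 ± 470 in confluent cells (SD, n = 4 each). On the log2(signal + 50) scale, used for all differences and folds here, Bcat1 was 1.14 ± 0.31 (SE) higher, a fold of 2.20 with a 95% interval of 1.38 to 3.52 (limma adjusted p = 0.0495). Against this 1 of 6, 2.75% of all 6007 tested probe sets were higher at the same adjusted threshold of 0.05 and 4.06% lower. In bulk RNA, more transcript per cell and more cells that carry it cannot be told apart.

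In the unpaired fit the call for Bcat1 rested close to the threshold. It remained when confluent replicate 2 was left out (1.45, limma adjusted p = 0.00885) and was lost without any other single array, with adjusted p from 0.0575 without subconfluent replicate 3 to 0.119 without subconfluent replicate 2. With the replicate block the limma adjusted p was 0.00935, and Bcat1 was called in all 4 fits that left out 1 pair (adjusted p = 0.00745 to 0.0460). The direction was positive in all 4 pairs, with log2 differences of 1.93, 0.51, 0.77 and 1.35 for pairs 1 to 4, as 20.7% of all tested probe sets were. Chip lot A, which is pair 1, gave a difference of 1.93, and lot C gave 1.01.

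**Figure D1:**
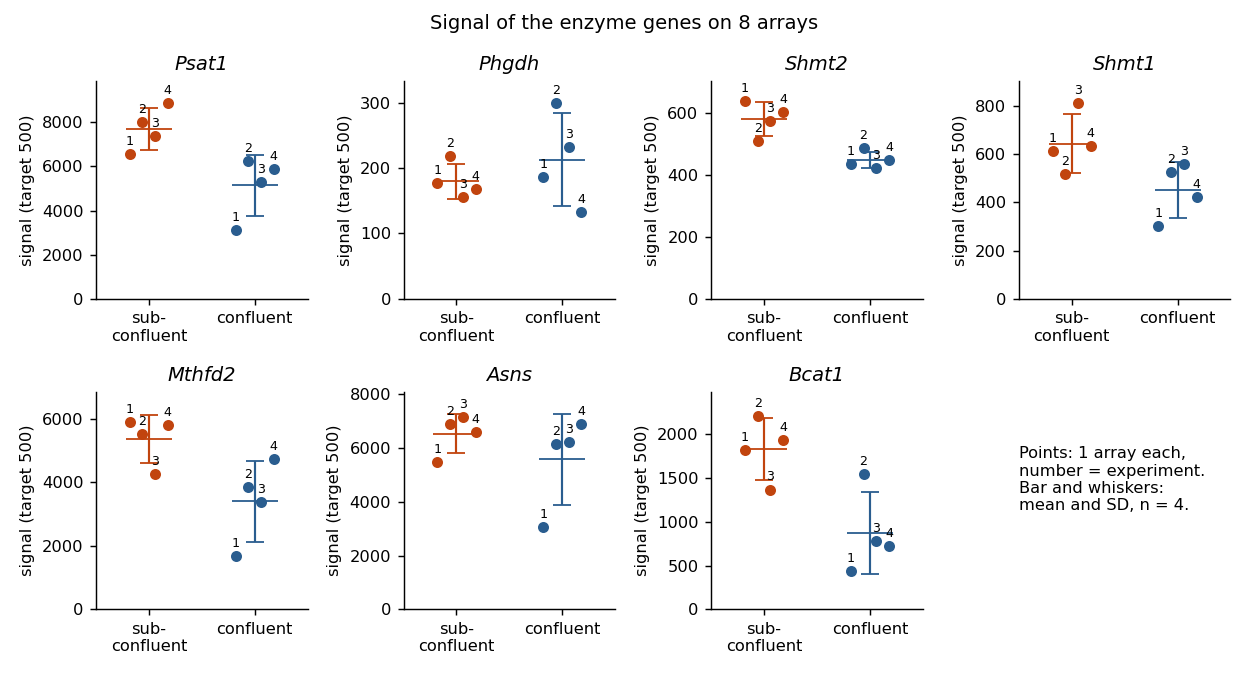
Signal (linear, scaled to 500) of 7 enzyme genes on 8 arrays, subconfluent left and confluent right in each panel, 1 point per array with its experiment number, mean bar and SD whiskers (n = 4). Confluent replicate 1 is the lowest point for Psat1, Shmt1, Mthfd2, Asns and Bcat1, and Phgdh lies near a signal of 200 in both groups.

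For serine synthesis, Psat1, the transaminase of the pathway, was separated between the groups, whereas its partner Phgdh was too dim to test. Psat1 had signals of 6566, 8004, 7382 and 8860 in subconfluent replicates 1 to 4, against 3134, 6237, 5291 and 5904 in confluent replicates 1 to 4. Every subconfluent array lay above every confluent one. Means were 7703 ± 970 in subconfluent and 5141 ± 1394 in confluent cells (SD, n = 4 each), and the log2 difference was 0.62 ± 0.21 (SE, fold 1.53, 95% interval 1.11 to 2.13). It did not pass over all probe sets (limma adjusted p = 0.0987), but it passed with the replicate block (limma adjusted p = 0.0143). The exact permutation test on the 8 values gave a two-sided p of 0.0286, the smallest that 4 against 4 allows. Lot A gave a difference of 1.06 and lot C one of 0.61, and leaving out confluent replicate 1 gave 0.40 (limma adjusted p = 0.175).

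Phgdh, the first enzyme of serine synthesis, had signals of 177, 218, 155 and 168 in subconfluent replicates 1 to 4, against 186, 299.9, 232 and 133 in confluent replicates 1 to 4. Confluent replicates 2 and 3 were above all subconfluent arrays and confluent replicate 4 was below them. Its only probe set, which the array's designers marked as made with relaxed selection rules, had a mean signal of 196 over the 8 arrays, just under the minimum of 200. When all probe sets were tested, its log2 difference was -0.16 ± 0.24 (SE), with a 95% interval of -0.68 to 0.36 (limma adjusted p = 0.813). A rise of more than 1.28-fold lies outside that interval.

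The 2 serine hydroxymethyltransferases, which transfer the one-carbon unit of serine to folate, gave smaller differences. Shmt2, the mitochondrial form, had signals of 639, 508, 572 and 602 in subconfluent replicates 1 to 4, against 436, 485, 423 and 447 in confluent replicates 1 to 4. The lowest subconfluent array lay just above the highest confluent one, so the groups were separate. Shmt2 was 0.34 ± 0.14 higher (SE, fold 1.26, 95% interval 1.02 to 1.57), which did not pass (limma adjusted p = 0.157). Separation in the upward direction, seen for Psat1 and Shmt2, was found for 8.34% of all tested probe sets. In lot A the difference of Shmt2 was 0.50 and in lot C it was 0.43, and the probe set's name marks an incomplete set of oligonucleotides.

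Shmt1, the cytosolic form, had signals of 614, 519.8, 812 and 633 in subconfluent replicates 1 to 4, against 300.5, 526, 562 and 422 in confluent replicates 1 to 4. Confluent replicates 2 and 3 exceeded subconfluent replicate 2, and so the groups overlapped. Its log2 difference was 0.48 ± 0.21 (SE, fold 1.40, 95% interval 1.02 to 1.92), short of the threshold (limma adjusted p = 0.168). Lot A gave 0.92, lot C gave 0.33, and leaving out confluent replicate 1 gave 0.32. A further Shmt1 probe set had 29.7 to 45.1 in subconfluent and 12.2 to 39.4 in confluent samples, at the 17.8th percentile of mean signal, and was not tested.

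Whether the mitochondrial and cytosolic forms changed unequally was tested on the log2 ratio of Shmt2 to Shmt1 within each array. The ratio averaged -0.13 ± 0.23 in subconfluent and 0.02 ± 0.35 in confluent samples (SD, n = 4 each), a change of -0.15. That change was within the spread between arrays (exact two-sided permutation test, p = 0.486), and it was 0.0057 without confluent replicate 1. Within pairs the ratio was higher in subconfluent samples in 1 of 4 (exact sign-flip test over pairs, p = 0.25). With 4 pairs that test cannot give a small p. The same comparison of Mthfd2 with Mthfd1 could not be made.

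Mthfd2, the mitochondrial dehydrogenase and cyclohydrolase of the folate cycle, showed the second largest difference of the 6 genes and did not pass the test. Signals were 5881, 5513, 4266 and 5807 in subconfluent replicates 1 to 4, against 1666, 3835, 3379 and 4718 in confluent replicates 1 to 4. Confluent replicate 4 lay above subconfluent replicate 3, and confluent replicate 1 was far below the others. The means were 5367 ± 751 in subconfluent and 3400 ± 1282 in confluent cells (SD, n = 4 each), with a log2 difference of 0.73 ± 0.28 (SE, fold 1.66, 95% interval 1.09 to 2.54, limma adjusted p = 0.123). Pair 1 differed by 1.79, which is also the value within lot A, and pairs 2 to 4 by 0.52, 0.33 and 0.30. The value was 0.55 within lot C and 0.43 without confluent replicate 1. A further Mthfd2 probe set, with signals of 12.3 to 38.9 in subconfluent and 6.6 to 43.1 in confluent samples, was too dim to be tested.

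Asns, asparagine synthetase, did not differ beyond the spread between arrays. Its brighter probe set had 5491, 6896, 7168 and 6585 in subconfluent replicates 1 to 4, against 3073, 6136, 6222 and 6888 in confluent replicates 1 to 4. Apart from confluent replicate 1, all arrays lay between 5491 and 7168. The log2 difference was 0.28 ± 0.24 (SE, fold 1.22, 95% interval 0.849 to 1.74, limma adjusted p = 0.499), and without confluent replicate 1 it was 0.02 (adjusted p = 0.957). Lot A gave 0.83 and lot C 0.14. The dimmer Asns probe set, whose name marks a sequence shared within a family, had 445, 364, 199.8 and 238 in subconfluent replicates 1 to 4, against 209.7, 418, 216 and 206 in confluent replicates 1 to 4. Its log2 difference of 0.21 ± 0.27 (SE) did not pass either (limma adjusted p = 0.686).

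**Figure D2:**
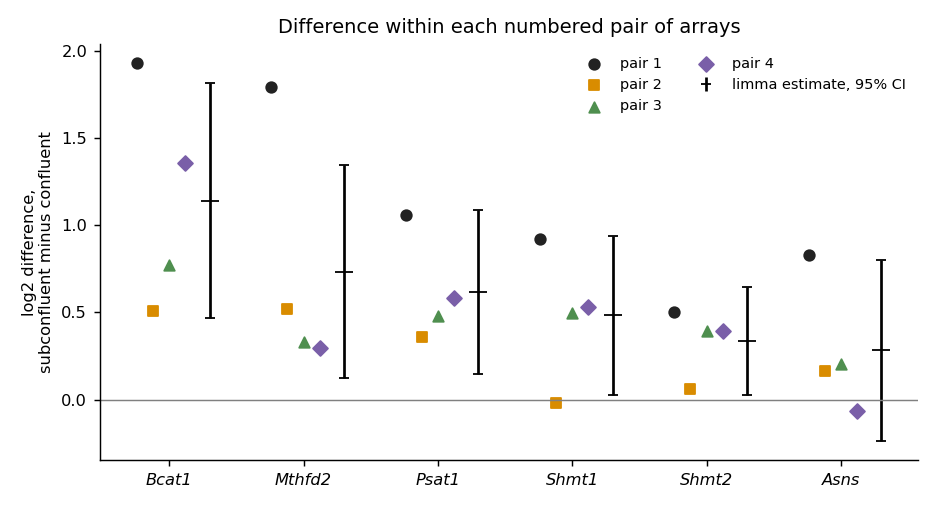
Log2 difference, subconfluent minus confluent, of the 6 tested genes within each numbered pair of arrays (symbols) beside the limma estimate with its 95% confidence interval. Pair 1 has the highest value for every gene, from 0.50 for Shmt2 to 1.93 for Bcat1, and 2 values lie below 0, for Shmt1 in pair 2 and Asns in pair 4.

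As a group, the 6 genes all had positive log2 differences, with a median of 0.55 against 0.00450 for all 4670 tested genes, of which 50.5% were positive. The mean level of the 6 relative to the confluent mean was 0.56, 0.61, 0.55 and 0.68 on subconfluent replicates 1 to 4, and -0.61, 0.34, 0.10 and 0.17 on confluent replicates 1 to 4. All subconfluent arrays thus lay above all confluent ones, and confluent replicate 1 stood apart from the other confluent arrays. The genes differed in how they followed that array: it was 0.49 to 0.91 below the confluent mean for 5 of them, and 0.03 below for Shmt2. The median of the 6 was 0.36 without confluent replicate 1. In lot A it was 0.99, and in lot C it was 0.49. With the replicate block 2 of the 6 rose, Bcat1 and Psat1, where 9.94% of all tested probe sets were higher and 11.3% lower. With chip lot as a fixed block 3 of the 6 rose, these 2 and Mthfd2 (limma adjusted p = 0.0367, 0.0268 and 0.0450), where 6.13% of all tested probe sets were higher and 5.24% lower.

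Genes of dividing cells were likewise higher on every subconfluent array and lowest on confluent replicate 1. In a list of 24 replication and mitosis genes 22 were tested, 5 rose and 0 fell, and all 22 log2 differences were positive, with 15 that rose under the replicate block. Their mean level relative to the confluent mean was 0.78 to 0.89 on the subconfluent arrays, -0.89 on confluent replicate 1 and 0.17 to 0.55 on the other confluent arrays. Fibroblast and pericyte markers went the other way, at -1.13 to -0.80 on the subconfluent arrays, and 4 of 10 tested markers fell. They were at 0.50 on confluent replicate 1 and -0.19 to -0.12 on the other confluent arrays. The 2 tested smooth muscle markers did not follow them. Their mean level was 1.81, 2.46, -0.26 and 1.19 on subconfluent replicates 1 to 4, against 0.88, 0.43, -0.63 and -0.68 on confluent replicates 1 to 4. Of these markers 0 passed in the main fit and 2 rose with the replicate block. The part of cell division or of cell composition in the enzyme values was not tested.

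**Figure D3:**
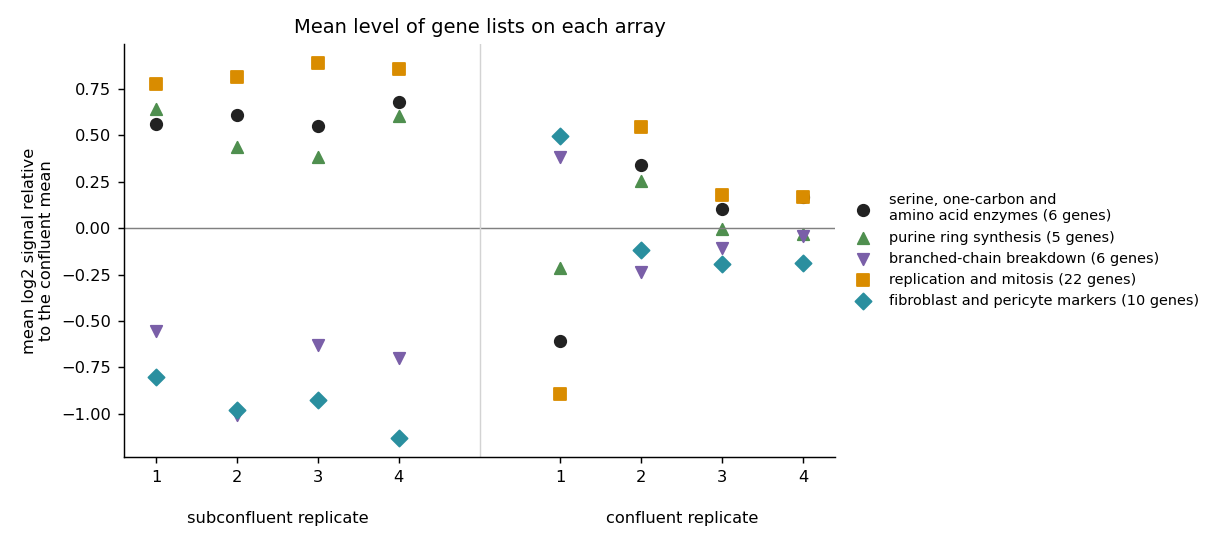
Mean log2 level of 5 gene lists on each array relative to the mean of the confluent arrays, subconfluent replicates left and confluent replicates right. The serine, one-carbon and amino acid enzymes (black circles) and the replication and mitosis genes (squares) are lowest on confluent replicate 1, where branched-chain breakdown genes and fibroblast and pericyte markers are highest.

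Among neighbouring steps of serine and glycine metabolism, 1 of 6 tested genes rose and 0 fell, in a list of 16 with 9 on the array. The one that rose was Gcsh, the carrier protein of the glycine cleavage system, which frees a one-carbon unit from glycine. It had signals of 2778, 2676, 1791 and 2368 in subconfluent replicates 1 to 4, against 1098, 1665, 1102 and 1558 in confluent replicates 1 to 4. Every subconfluent array was above every confluent one, and the log2 difference was 0.81 ± 0.20 (SE, limma adjusted p = 0.0384). The call was kept without confluent replicate 2 or subconfluent replicate 3 and lost without any other single array (adjusted p up to 0.0961). Of the other genes of the glycine cleavage system, Dld was -0.03 (limma adjusted p = 0.935). Gldc averaged 60.5 and was not tested, and Amt had no probe set. Gatm, which makes the creatine precursor from glycine, was -0.50 and Sptlc2, which joins serine to a fatty acid, was -0.52 (limma adjusted p = 0.220 for Gatm and 0.0952 for Sptlc2, and 0.0309 and 0.0210 under the replicate block). Psph, the last enzyme of serine synthesis, was 0.40 (limma adjusted p = 0.288). Without confluent replicate 1 Psph was 0.19, and without subconfluent replicate 2 Gatm was -0.30.

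Folate and methyl group enzymes had 0 of 7 tested genes past limma's threshold, from a list of 23 with 10 on the array, and their median log2 difference was 0.38. At an unadjusted level of 0.05, 2 were higher and 1 lower, where 13.5% of all tested genes were higher and 13.7% lower. With the replicate block 3 rose and 1 fell. Slc19a1, the reduced folate carrier, averaged 1186 ± 132 in subconfluent and 699 ± 242 in confluent cells (SD, n = 4 each) and was 0.78 (limma adjusted p = 0.0681, or 0.0333 with the replicate block). The differences of Ahcy, which clears the product of methyl transfer, and Dnmt1, the maintenance DNA methyltransferase, were 0.59 and 0.53 (limma adjusted p = 0.205 for Ahcy and 0.202 for Dnmt1, and 0.0240 and 0.0338 under the replicate block). Without confluent replicate 1 Dnmt1 was 0.28. Fpgs, which traps folate in the cell, was 0.38 and Mat2b, a regulatory subunit of the enzyme that makes the methyl donor, was -0.47 (limma adjusted p = 0.189 for Fpgs and 0.0909 for Mat2b, and 0.0751 and 0.0325 under the replicate block).

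In purine ring synthesis, which uses folate-bound one-carbon units, 1 of 5 tested genes rose and 0 fell. All 5 differences were positive, with a median of 0.41, but of the 5 only Gart, which did not pass, uses such a unit. With the replicate block 2 rose. Prps1, which makes the ribose donor of the ring, had 1682, 1349, 1468 and 1337 in subconfluent replicates 1 to 4, against 626.5, 1071, 836 and 788 in confluent replicates 1 to 4. The groups were separate, and the log2 difference was 0.80 ± 0.18 (SE, limma adjusted p = 0.0293). Its call remained without confluent replicate 2 and was lost without each other array (adjusted p up to 0.0698). Impdh1, of the guanine nucleotide branch, was 0.75 and Gart, an enzyme that takes up a one-carbon unit, was 0.41 (limma adjusted p = 0.0715 for Impdh1 and 0.164 for Gart, and 0.0351 and 0.0861 under the replicate block).

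Genes for the breakdown of branched-chain amino acids, the route that follows the Bcat reaction in mitochondria, ran opposite to Bcat1 in transcript level. Of 18 listed genes 12 were on the array and 6 were tested, of which 3 fell and 0 rose, and all 6 differences were negative with a median of -0.78. The 6 include Bckdk, a kinase that regulates the route and is not a step of it, at -0.12 (limma adjusted p = 0.674). With the replicate block 5 fell. At the same threshold 4.39% of all tested genes were lower and 2.83% higher. The 3 that fell, Ivd, Mccc1 and Auh, encode proteins of consecutive steps of leucine breakdown. Mccc1, a subunit of methylcrotonyl-CoA carboxylase, had 196, 84.9, 203 and 235 in subconfluent replicates 1 to 4, against 621, 421, 453 and 536 in confluent replicates 1 to 4. All subconfluent values lay below the confluent ones, as in 8.54% of all tested probe sets, and the log2 difference was -1.32 ± 0.24 (SE, limma adjusted p = 0.0160), a call that every single left-out array kept.

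Ivd, isovaleryl-CoA dehydrogenase, had 293.5, 206, 242.5 and 192 in subconfluent replicates 1 to 4, against 695, 346, 439.9 and 416.5 in confluent replicates 1 to 4. Auh, methylglutaconyl-CoA hydratase, had 287, 247, 295 and 319.8 in subconfluent replicates 1 to 4, against 806, 469, 479 and 534.5 in confluent replicates 1 to 4. In both the groups were separate and confluent replicate 1 was the highest array, with log2 differences of -0.86 ± 0.22 and -0.86 ± 0.19 (SE, limma adjusted p = 0.0407 and 0.0277). The Ivd call was kept only without confluent replicate 2 and the Auh call only without confluent replicate 1 or 2, with adjusted p up to 0.101 and 0.0683 in the other fits. Within lot A the differences of Mccc1, Ivd and Auh were -1.45, -1.12 and -1.34, and within lot C they were -0.90, -0.88 and -0.57. Mmut and Hibadh, of the valine and isoleucine routes, were -0.69 and -0.48 (limma adjusted p = 0.0871 for Mmut and 0.169 for Hibadh, and 0.0127 and 0.0404 under the replicate block), and without confluent replicate 1 Hibadh was -0.31. Bcat2, the mitochondrial counterpart of Bcat1, had a mean signal of 169 and was not tested. The list's mean level was 0.38 on confluent replicate 1, where fibroblast and pericyte markers stood at 0.50, and the part of cell composition was not tested.

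A list of other amino acid enzymes, of synthesis and breakdown alike, had 0 of 9 tested genes past limma's threshold and a median of 0.07. At the unadjusted level of 0.05, 1 was higher and 1 lower, near the 13.5% and 13.7% of all tested genes. With the replicate block 1 fell and 0 rose. Oat, ornithine aminotransferase, was -0.65 (limma adjusted p = 0.0952, or 0.0100 with the replicate block). Pycrl, of the pyrroline reductase family that makes proline, was 0.44 and Glud1, glutamate dehydrogenase, was 0.26 (limma adjusted p = 0.155 and 0.514). Without confluent replicate 1 they were 0.29 for Pycrl and 0.10 for Glud1.

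**Figure D4:**
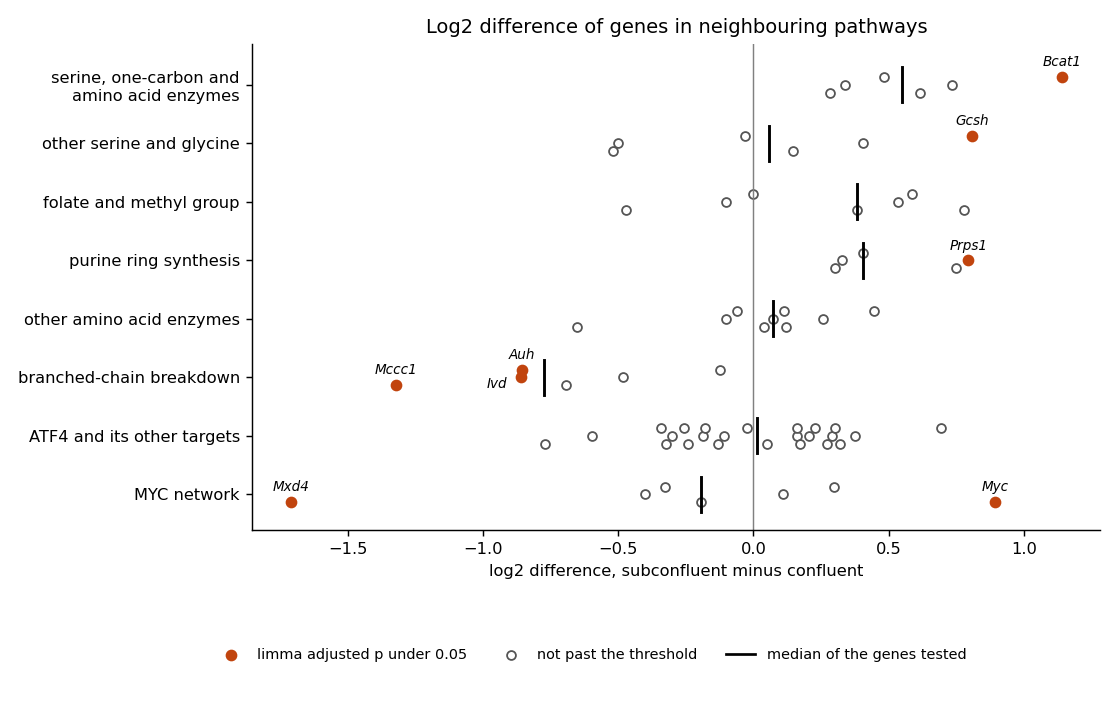
Log2 difference, subconfluent minus confluent, of each tested gene in 8 lists, with filled points for limma adjusted p under 0.05 and a bar at each median. The 6 enzyme genes in the top row have a median of 0.55, the 24 ATF4 genes one of 0.01, and the 6 branched-chain breakdown genes one of -0.78.

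ATF4 and its other targets, amino acid transporters, tRNA synthetases and stress genes among them, made a list of 34 with 31 on the array. Of these 24 were tested and the rest were too dim, so part of the list has no test. Of the 24 tested genes 0 passed limma's threshold, and 12 of the 24 differences were positive with a median of 0.01. At the unadjusted level of 0.05 and with the replicate block alike, 1 was higher and 2 were lower. At that unadjusted level 13.5% of all tested genes were higher and 13.7% lower. With the replicate block 9.94% of all tested probe sets were higher and 11.3% lower. Atf4 itself averaged 5495 in subconfluent and 4771 in confluent samples, a log2 difference of 0.21 (limma adjusted p = 0.462), which is not a measure of its protein. Slc7a5, a transporter of large neutral amino acids such as leucine, was 0.69 (limma adjusted p = 0.113, or 0.0243 with the replicate block). Without confluent replicate 1 Slc7a5 was 0.43 and Atf4 was 0.10. The stress gene Nupr1 and the transporter gene Slc38a2 were -0.77 and -0.60 (limma adjusted p = 0.0904 for Nupr1 and 0.0883 for Slc38a2, and 0.00874 and 0.0104 under the replicate block).

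In the MYC network 1 of 7 tested genes rose and 1 fell, where 2.83% of all tested genes were higher and 4.39% lower. Myc had 1145, 1696, 1135 and 1004 in subconfluent replicates 1 to 4, against 464, 598, 814 and 710.2 in confluent replicates 1 to 4. Mxd4, a repressor that competes with MYC for its partner MAX, had 186, 228, 219.7 and 164 in subconfluent replicates 1 to 4, against 852.5, 769, 676 and 756 in confluent replicates 1 to 4. Neither gene's groups overlapped, and the log2 differences were 0.89 ± 0.21 for Myc and -1.71 ± 0.16 for Mxd4 (SE, limma adjusted p = 0.0324 and 0.000555). The Mxd4 call was kept without any single array, and the Myc call only without confluent replicate 2 or 3 (adjusted p up to 0.0773). Both passed with the replicate block (limma adjusted p = 0.0130 for Myc and 0.000486 for Mxd4). Within lot A Myc was 1.22 and Mxd4 -1.93, and within lot C they were 0.37 and -1.60. With chip lot as a fixed block Myc was 0.73 and did not pass (limma adjusted p = 0.0718), whereas Mxd4 was -1.74 and passed (limma adjusted p = 0.00743). Mxi1, another antagonist of MYC, was -0.40 (limma adjusted p = 0.212).

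Genes most like each tested enzyme were sought by the correlation of log2 deviations from the group means over the 8 arrays, as a description with few arrays behind it. Those of Mthfd2 were Rrm2, which makes deoxynucleotides (0.98), and Psph (0.98). Nearest to Psat1 were the histone chaperone gene Asf1b (0.99) and the importin gene Ipo11 (0.99), and nearest to Bcat1 were the importin gene Ipo5 (0.99) and the annexin gene Anxa2 (0.98). Asns was closest to Tsr1, of ribosome assembly (0.99), and Sem1, a small proteasome subunit (0.99). For Shmt1 these were Batf3 and Nelfcd (0.99 and 0.98), and for Shmt2 they were Ube2n and Crkl (0.99 and 0.97). Between members the correlation was 0.92 for Asns and Psat1 and 0.86 for Mthfd2 and Psat1. Many other genes came closer, as Psat1 ranked 55th among the genes nearest to Asns and 68th among those nearest to Mthfd2. On confluent replicate 1 Asns, Psat1 and Mthfd2 stood at -0.79, -0.66 and -0.91 relative to the confluent mean. The correlation was at most 0.27 between Shmt2 and any other member. All of these values share the same 8 arrays.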

How the data were processed

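RNA of 8 samples was measured on Affymetrix mouse arrays, 1 array each. The deposited values are linear signal intensity. Per the labels, the authors used Affymetrix's statistical algorithm and a target signal of 500. Its software version is not given in the sources used here. Leaving out the lowest and highest 2% of probe sets, array means were 500.3, so nothing was rescaled.

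Of 12488 probe sets 66 controls were dropped. GEO's platform annotation gave 10833 of the rest 1 symbol, 396 several and 1193 none, and only the first kind was named. The 6007 probe sets (4670 genes) that averaged 200 or more were tested on log2(signal + 50), which shrinks the fold of dim genes. For a gene, the brightest tested probe set stood for it. The difference, subconfluent minus confluent, was fitted in R 4.3.3 with limma 3.58.1 (eBayes with trend, 6 residual degrees of freedom, Benjamini-Hochberg over all 6007, two-sided, threshold 0.05), tested on simulated data. Single values were tested by exact permutation, and the Shmt2 to Shmt1 ratio also by an exact sign-flip test over pairs. Tables and plots used Python 3.11.15, pandas 2.3.3, numpy 2.4.6 and matplotlib 3.10.9. P-values measure the spread between arrays, which may be technical.

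Deviations from group means of same-numbered arrays correlated at 0.486, 0.357, 0.516 and 0.348, so the numbers, which the labels give as experiments, were taken as pairs and fitted as a replicate block beside the unpaired fit. Other alternatives were pseudocount, filter, normalization, scale factor as covariate, array weights, variance trend, chip lot and left-out arrays. Members, gene lists and tests were chosen with earlier results of these data known. Named were all members, the 3 genes of smallest p and every called gene of each pathway list, and the 2 genes most like each member. Psph, Dld, Gldc, Amt, Atf4, Ahcy, Dnmt1, Mmut, Hibadh, Bckdk and Bcat2, and correlations between members, were picked after their values were seen. So were the markers Eng, Cdh5, Tek, Icam2, Sox18, Sox17, Pecam1 and Kdr. Promoters are RefSeq sequences, build GRCm38.p6, matched by symbol for all 8 genes. Listed symbols were matched through RefSeq synonyms.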

Additional observations from a re-analysis of the deposited data

Results flagged for a closer look

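Among 62 groups of 4 signals, from 31 probe sets of members and named genes, 5 held an array whose gap to its nearest neighbour filled more of the group's range than Dixon's 95% limit allows, and chance gives about 1 in 20. The dimmer Asns probe set was 418.1 on confluent replicate 2, against 206.3 to 216.4 on the other confluent arrays. Gart was 1334.7 on confluent replicate 2, against 831.4 to 876.2 on the other confluent arrays. Slc7a5 was 1040.7 on confluent replicate 1, below 2122.1 to 2313.3 on the others of its group. Slc38a2 was 4144.5 on that same array, above 2459.6 to 2681.9 on the others. Fpgs was 1090.6 on subconfluent replicate 4, against 785.3 to 812.8 on the other subconfluent arrays. No cause was tested.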

How the results depend on the processing

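The count of members that rose, 1 of 6 in the unpaired fit, was 2 with the replicate block (1 to 3 when 1 pair was left out). It was 3 with chip lot as a fixed block, which draws on lots A and C only, or as a random block. It was 0 with a pseudocount of 1, no filter, quantile normalization, the scale factor as covariate, or no variance trend, and 0 to 1 when single arrays were left out. It remained 1 with a pseudocount of 150, a filter of 500, median centring and array weights. Wherever at least 1 member rose, Bcat1 was among them (0.88 to 1.93, called in 12 of 25 alternative limma fits). Its limma adjusted p was 0.00745 to 0.119, leaving aside the fit of lot C alone. That fit has 1 confluent array and cannot decide a call, but it is among the fits counted here. Psat1 was called in 6 of 25, Mthfd2 in 2 of 26 and Shmt1 in 1 of 26, the replicate block without pair 2 (limma adjusted p = 0.0231). Members that fell numbered 0 in every fit run. At an unadjusted level of 0.05, 5 of 6 members were higher and 0 lower, where 13.5% of all tested genes were higher and 13.7% lower. All 6 log2 differences were positive in every alternative. The change of the Shmt2 to Shmt1 ratio ran from -0.27 to 0.0057 when single arrays were left out, reversing without confluent replicate 1, and was never called. The planned Mthfd2 to Mthfd1 ratio was not run, as Mthfd1 has no probe set here. Beside Psat1, whose call it added, the replicate block changed no member's call. The causes were not tested. Dim probe sets of Phgdh, Shmt1 and Mthfd2 limit what can be said of them.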
